A study of Mus musculus with 2 samples.

Results

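Complex I, the NADH:ubiquinone oxidoreductase of the inner mitochondrial membrane, was followed through the genes whose names begin with Nduf, which encode its nuclear subunits and several of the factors that assemble it. The deposited table of interscapular brown adipose tissue (BAT) held 39 such names of 30649, spread over 59 of its 55350 rows. By symbol they fell into 10 genes of the matrix arm (Ndufs and Ndufv), 12 of the membrane arm (Ndufb and Ndufc), 15 Ndufa genes and 2 assembly factors (Ndufaf). Ndufa12l was placed with the assembly factors because its current symbol is Ndufaf2. RefSeq lists 54 Nduf genes in the mouse. Of the others, 6 appeared in the table under older symbols and are given apart, namely Ndufv3 and 5 assembly factors.

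Wild-type (WT) BAT was compared with BAT of Taf7l knockout (KO) mice, which lack the gene for TAF7L, the X-linked relative of the TFIID subunit TAF7, throughout the body. Both genotypes were on the C57BL/6 background. Each genotype gave 1 mRNA-seq library, made from the combined RNA of 6 animals. Both pools are labelled as 1 month old, but another field of the KO labels gives 3 months. If that entry is right, age and genotype cannot be told apart. With 1 library per genotype the spread between pools or animals is unknown, no test between genotypes was possible, and no SD or p-value is given.

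Expression was measured as FPKM, fragments counted on a transcript relative to its length in kilobases and to the sequencing depth. Rows with the same gene name were added together. A gene was compared if either library reached 1 FPKM, which 12171 genes did, and the ratio of KO to WT is given as log2((KO + 0.1)/(WT + 0.1)), a scale that understates the change of low genes. All 39 Nduf genes were among them. The depth, estimated from the steps between low values, came to 25857097 mapped reads for WT BAT and 78334263 for KO BAT. Taf7l itself stood at 0.0222 FPKM in WT BAT and 0.00734 FPKM in KO BAT, which comes to about 1 read per library, so the labels could not be checked by it. Brown adipocyte markers were present in both pools, with 11 of 11 above 0 and a summed level of 35873 FPKM in WT and 18553 in KO. Their levels differed widely, from Prdm16 at 1.84 FPKM in WT and 2.78 in KO to Fabp4 at 19657 and 10713. Fabp4 made up the largest part of the sum, and the paper states that its protein stains white as well as brown fat. All 12 skeletal muscle fibre markers were at least 3-fold higher in KO, where 2.05% of all genes compared were. Their summed level was 186 FPKM in WT BAT against 2140 FPKM in KO BAT, with none at 0 in either library. In such whole-tissue RNA, fewer cells of a type and less RNA per cell cannot be told apart, and the part of the muscle signal in the values below was not tested.

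Complex I passes electrons from NADH to ubiquinone and pumps protons across the inner membrane. It is shaped like an L. Its matrix arm holds the flavin and the iron-sulfur clusters along which the electrons travel, in an N module that takes them from NADH and a Q module that hands them to ubiquinone. Its membrane arm, built from the P modules, pumps the protons, and its central subunits are encoded by the mitochondrial genome. The accessory subunits, all nuclear, surround the catalytic core of both arms. Brown adipocytes are densely packed with mitochondria, and in them UCP1 lets protons flow back without making ATP, so that electron transport releases heat.

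The 4 stretches of promoter printed here show the genes at the ends of the range, Ndufb4 and Ndufb2 with the lowest ratios of KO to WT among subunits, and Ndufa12 and Ndufa10 with the highest among established subunits. Each line gives the 100 bases before the transcription start, 5′ to 3′ on the strand of the gene, from RefSeq on GRCm38.p6, with capitals where the letters match the motif of NRF1 or that of the estrogen-related receptors (ERR, TNAAGGTCA), N standing for any base. The capitals of NRF1 show its whole motif, in which the sixth base may be any. NRF1 and ERRα are known activators of genes for the respiratory chain. Ndufb4 lies on the minus strand (chr16:37654369-37654468) and Ndufb2 on the plus strand (chr6:39592465-39592564). Ndufa12 lies on the plus strand (chr10:94198935-94199034) and Ndufa10 on the minus strand (chr1:92473759-92473858). The RefSeq gene of Ndufa10 reaches position 92473825, so part of its stretch lies within the gene.
Ndufb4: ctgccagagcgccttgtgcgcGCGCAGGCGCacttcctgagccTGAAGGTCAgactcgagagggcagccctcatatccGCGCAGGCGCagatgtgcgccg
Ndufb2: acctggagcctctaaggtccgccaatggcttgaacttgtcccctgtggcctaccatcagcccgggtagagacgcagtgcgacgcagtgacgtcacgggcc
Ndufa12: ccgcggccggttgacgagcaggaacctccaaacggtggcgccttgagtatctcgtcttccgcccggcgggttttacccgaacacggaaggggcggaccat
Ndufa10: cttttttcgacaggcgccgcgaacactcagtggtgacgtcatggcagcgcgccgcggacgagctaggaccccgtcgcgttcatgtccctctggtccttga
The NRF1 letters stood at 2 places before Ndufb4, 79 to 70 and 22 to 13 bases from the start, with the ERR letters 57 to 49 bases from it, and neither occurred in the other 3 stretches. Over windows from 250 bases before the start to 50 after it, searched on both strands, 34 of the 39 Nduf genes had a sequence, and Ndufb4 was the only one with both motifs.

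Most Nduf genes were lower in Taf7l KO BAT than in WT BAT, by modest amounts. Of 39 genes, 32 lay below 0 on the log2 scale, against 49.2% of all genes compared, and the median was -0.26 against 0.01 for all genes. At least 1.5-fold lower were 9 members, or 23.1%, against 12.7% of all genes compared. At least 1.5-fold higher was 1 member, against 16.5% of all genes. None was 3-fold lower or 3-fold higher, where 0.403% and 2.05% of all genes were. Nduf genes are abundant in BAT, and 35 of 39 reached 100 FPKM in either library. Among the 859 genes that abundant, 574 lay below 0 and the median was -0.21. A share of 22.5% of them lay at least 1.5-fold lower and 9.78% were at least 1.5-fold higher. Of the 35 Nduf genes in that set, 7 (20%) were at least 1.5-fold lower, a share close to that background. The Nduf genes were still the more abundant, with a median of 558 FPKM in WT BAT against 213 FPKM for the set. The summed FPKM of the 39 genes was 27519 in WT and 20355 in KO.

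**Figure D1:**
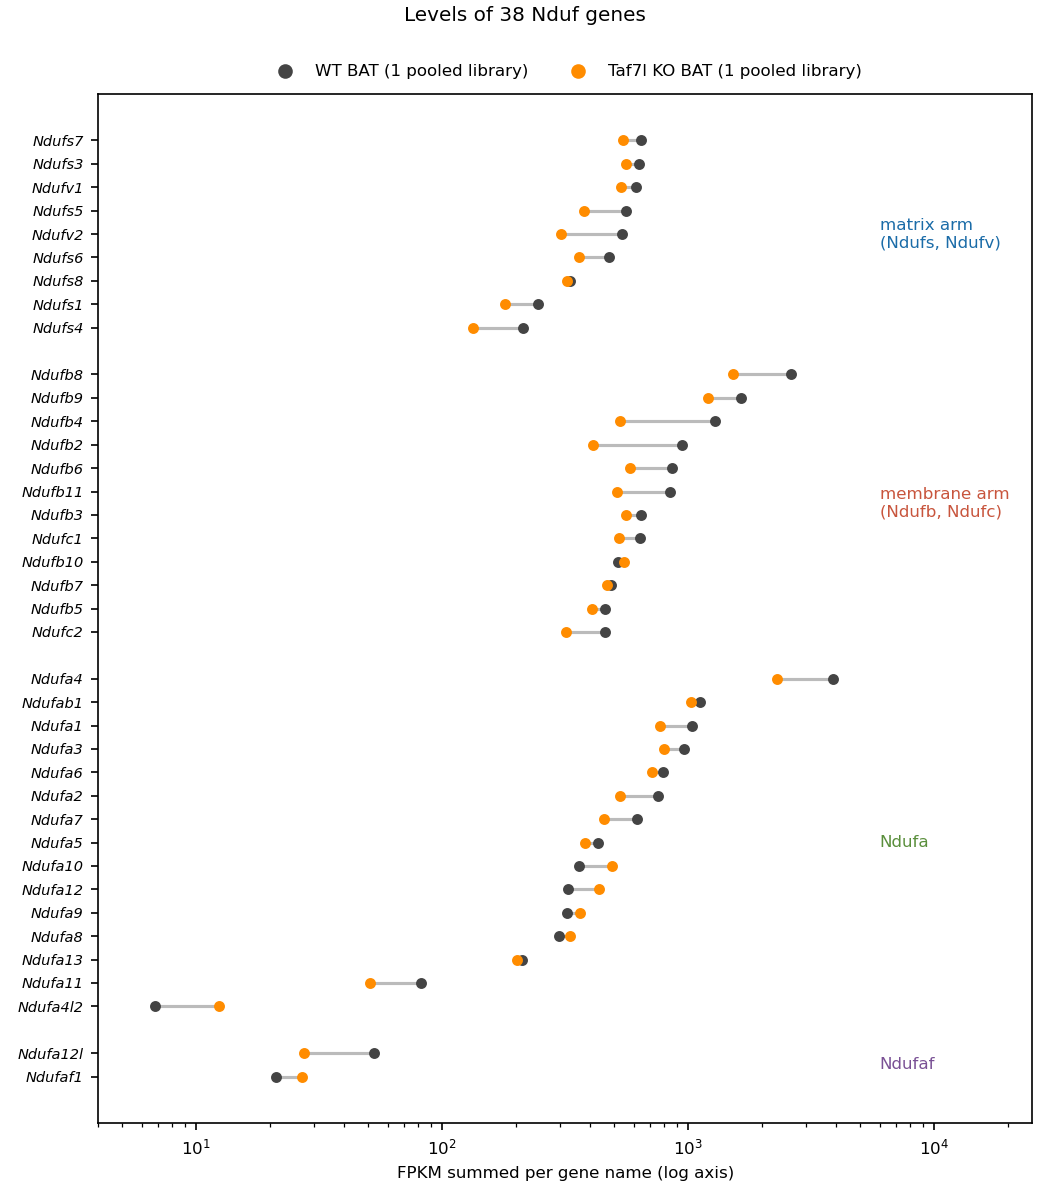
Level of 38 of the 39 Nduf genes in FPKM (log axis), summed per gene name, in the WT library (dark points) and the Taf7l KO library (orange points), grouped by class and ordered by WT level, with a line joining the 2 values of a gene. The orange point lies to the left for 31 genes, with the widest gaps at Ndufb4 and Ndufb2, and to the right for 7, among them Ndufa10, Ndufa12 and Ndufa4l2.

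The matrix arm as grouped by name (Ndufs and Ndufv) had all 10 members below 0. Their median log2 ratio was -0.33, with a range from -0.83 to -0.03. Below 0 lay 49.2% of all genes compared, and 574 of the 859 genes at 100 FPKM or more. Grouped by place in the complex, 2 of the 15 N and Q module members, Ndufa12 and Ndufa9, lay above 0. So did Ndufv3 of the N module (log2 ratio 0.33), which is listed under an older symbol and given apart. The catalytic core of the arm is made of 7 proteins. Ndufv2, which carries an iron-sulfur cluster of the N module, stood at 538 FPKM in WT BAT and 303 FPKM in KO BAT (log2 ratio -0.83). It was the lowest of the arm. Ndufs1, the largest subunit of the arm and holder of several clusters, stood at 245 FPKM in WT and 180 in KO (log2 ratio -0.44), and its 6 rows lay between -0.55 and -0.42. Ndufv1, which binds NADH and the flavin, stood at 614 FPKM in WT BAT against 533 FPKM in KO BAT (log2 ratio -0.20).

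The core genes given here for the Q module differed less between the pools than Ndufv2 and Ndufs1, though Ndufs7 lay a little below Ndufv1. Ndufs7, which carries the last cluster before ubiquinone, stood at 643 FPKM in WT BAT and 542 FPKM in KO BAT, a ratio of KO to WT of 0.842 with a 95% exact binomial interval of 0.822 to 0.862. Such an interval covers counting error only, treats each read as independent and leaves out differences between mice. Ndufs3, a core protein without a cluster, stood at 632 FPKM in WT BAT against 560 FPKM in KO BAT (log2 ratio -0.17). Ndufs8, which holds a pair of clusters, was nearly level, at 329 FPKM in WT BAT and 322 FPKM in KO BAT (log2 ratio -0.03). In these libraries the core genes given here for the Q module lay between -0.25 and -0.03, and the 3 of the N module between -0.83 and -0.20.

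The other 3 genes of the arm are accessory subunits with an Ndufs name. Ndufs4, whose loss in mice causes a brain disease like Leigh syndrome, stood at 213 FPKM in WT and 134 in KO (log2 ratio -0.67). With Ndufv2 it made up the 2 genes of the arm (20%) at least 1.5-fold lower. That share was 12.7% over all genes compared and 22.5% over those at 100 FPKM or more. Ndufs5, which despite its name sits on the membrane arm, stood at 558 FPKM in WT BAT against 376 FPKM in KO BAT (log2 ratio -0.57), just short of 1.5-fold. Of the 50-base windows of Ndufs5, 35.6% also occur in BC002163, and of those of Ndufs3, 35.8% in 2 genes elsewhere, mostly Gm12251, so both values are uncertain. Ndufs6, a zinc-binding subunit between the N and Q modules, stood at 478 FPKM in WT BAT and 359 FPKM in KO BAT (log2 ratio -0.41). Of its windows 14.6% also occur in Ndufs6b, so its value is uncertain too.

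The membrane arm held the lowest ratios of all Nduf genes. Its median log2 ratio was -0.49, with 11 of 12 genes below 0 and 4 (33.3%) at least 1.5-fold lower. Of all genes compared 12.7% were at least 1.5-fold lower, and of those at 100 FPKM or more 22.5%. Ndufb4, an accessory subunit of the proton-pumping arm, stood at 1285 FPKM in WT and 527 in KO, a log2 ratio of -1.29. Ndufb2, a small subunit of the far end of the arm, stood at 941 FPKM in WT BAT against 412 FPKM in KO BAT, a log2 ratio of -1.19. From about 6200 reads in WT and 8214 in KO, the ratio of Ndufb2 was 0.437 with a counting interval of 0.423 to 0.452. These 2 subunits were the only Nduf genes more than 2-fold lower.

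Part of the reads of these genes could belong to other loci. Of the 50-base windows of Ndufb4 (chr16:37647602-37654368, GRCm38), 37.0% also occur in annotated transcripts of 3 genes elsewhere, mostly Ndufb4c. Its value is therefore uncertain by what the mapping did with such reads. Ndufb2 (chr6:39592565-39599843, GRCm38) shares 0.739% of its windows with genes elsewhere, and 32.8% with Gm42420, which overlaps it. Other members also share windows with genes that overlap them. Ndufb6 shares 34.1% with Smim27, Ndufa13 27.1% with Tssk6 and Ndufb9 23.4% with Gm49356. Ndufb5 shares 16.2% with Mrpl47 and Ndufb8 13.5% with Gm20538.

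Ndufb8, the most abundant subunit of the membrane arm, stood at 2607 FPKM in WT BAT and 1525 FPKM in KO BAT (log2 ratio -0.77). Ndufb11, encoded on the X chromosome like Ndufa1, stood at 847 FPKM in WT and 516 in KO (log2 ratio -0.72). They completed the 4 genes of the arm at least 1.5-fold lower. Ndufb9, which binds an acyl carrier protein through its LYR motif, stood at 1636 FPKM in WT BAT against 1201 FPKM in KO BAT (log2 ratio -0.45).

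At the other end of the range, Ndufb10, which faces the intermembrane space, was the only Ndufb or Ndufc gene above 0. It stood at 517 FPKM in WT BAT and 547 FPKM in KO BAT (log2 ratio 0.08). Ndufb7, which faces the same side, stood at 486 FPKM in WT and 468 in KO (log2 ratio -0.05). Ndufb5, which spans the membrane, stood at 460 FPKM in WT BAT against 405 FPKM in KO BAT (log2 ratio -0.18). The other 4 genes of the arm, Ndufb3, Ndufb6, Ndufc1 and Ndufc2, lay between -0.57 and -0.21.

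The Ndufa genes, which are scattered over both arms, lay on both sides of 0. Of 15, 10 lay below 0 and 5 above, with a median log2 ratio of -0.14 and a range from -0.76 to 0.85. Ndufa4, once counted with complex I and now assigned to cytochrome c oxidase (complex IV), was the most abundant Nduf gene, at 3893 FPKM in WT BAT and 2296 FPKM in KO BAT (log2 ratio -0.76). Its paralog Ndufa4l2, a gene induced in hypoxia through HIF1, went the other way at a far lower level, with 6.80 FPKM in WT and 12.3 in KO (log2 ratio 0.85). It rested on about 129 reads in WT and 709 in KO, which gave a counting interval of the ratio from 1.502 to 2.21. Ndufa4l2 was the only Nduf gene at least 1.5-fold higher, and the ratio of Ndufa4 lay on the other side of 0 in the same libraries.

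Among the Ndufa subunits of complex I proper, Ndufa11 and Ndufa2 were lowest. Ndufa11, a membrane protein of the TIM17 family, stood at 81.7 FPKM in WT BAT against 50.8 FPKM in KO BAT (log2 ratio -0.68), the lowest level of any subunit. Ndufa2, an N module subunit with a thioredoxin-like fold, stood at 755 FPKM in WT BAT and 528 FPKM in KO BAT (log2 ratio -0.52). Ndufa1, a small X-linked subunit of the membrane arm, stood at 1032 FPKM in WT and 767 in KO (log2 ratio -0.43).

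Of the Ndufa subunits of complex I, 4 were above 0. Ndufa10, of the nucleoside kinase family and bound to the membrane arm, stood at 361 FPKM in WT BAT against 489 FPKM in KO BAT (log2 ratio 0.44). Ndufa12, an N module subunit, stood at 324 FPKM in WT BAT and 434 FPKM in KO BAT (log2 ratio 0.42), a ratio with a counting interval from 1.29 to 1.39. Of its 50-base windows 53.8% also occur in the pseudogene Gm15920, so this value is uncertain. Ndufa9, a Q module subunit that binds NADPH, and Ndufa8, which faces the intermembrane space, lay at 0.18 and 0.15. None of the 4 reached 1.5-fold.

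Ndufab1 is the mitochondrial acyl carrier protein and serves fatty acid synthesis as well as complex I, in which it occupies a place in each arm. It stood at 1116 FPKM in WT and 1031 in KO (log2 ratio -0.11), and 31.2% of its windows occur in 10 genes elsewhere. The other 5 Ndufa genes, Ndufa3, Ndufa5, Ndufa6, Ndufa7 and Ndufa13, lay between -0.45 and -0.07.

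The 2 assembly factors named Ndufaf or its older form went in opposite directions. Ndufaf2 (listed as Ndufa12l) is the paralog of Ndufa12 and holds its place on the growing complex until Ndufa12 takes over. It stood at 52.8 FPKM in WT BAT against 27.4 FPKM in KO BAT (log2 ratio -0.94), the third lowest ratio of the 39. Ndufa12 itself lay above 0, so the level of Ndufa12 over that of Ndufaf2 was higher in KO. The level of Ndufa12 is uncertain, because 53.8% of its windows also occur in Gm15920. Ndufaf1, a member of the assembly complex that builds part of the membrane arm, stood at 21.001 FPKM in WT BAT and 26.8 FPKM in KO BAT (log2 ratio 0.35), with a counting interval of the ratio from 1.17 to 1.39.

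The genes listed under older symbols lay within the range of the members. Ndufaf6, needed in human cells for the subunit ND1, stood at 20.2 FPKM in WT and 13.6 in KO (log2 ratio -0.56). Ndufaf5, which hydroxylates Ndufs7, stood at 12.5 FPKM in WT BAT against 9.05 FPKM in KO BAT (log2 ratio -0.46). Ndufaf4, which acts early with Ndufaf3, stood at 12.9 FPKM in WT BAT and 10.1 FPKM in KO BAT (log2 ratio -0.34). These 3 factors were the lower ones.

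Ndufaf3 stood at 26.5 FPKM in WT and 29.8 in KO (log2 ratio 0.17). Ndufaf7, a methyltransferase that acts early in assembly, stood at 59.4 FPKM in WT BAT against 67.3 FPKM in KO BAT (log2 ratio 0.18). Over the 7 Ndufaf genes the median was -0.34, with 4 below 0 and 3 above. Ndufv3, a small N module subunit, stood at 335 FPKM in WT BAT and 422 FPKM in KO BAT (log2 ratio 0.33). It was the only Ndufs or Ndufv gene above 0, and is no member by the name it has in the table. Of 11 compared assembly factors without an Nduf name, 7 lay below 0, with a median of -0.30. The 1 at least 1.5-fold lower was Tmem70, which also helps to build the ATP synthase, at 95.4 FPKM in WT and 58.6 in KO. Of all genes compared, 12.7% were that much lower.

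The comparison of the arms depended on how it was made. As deposited, the median of the membrane arm lay 0.16 log2 units below that of the matrix arm (difference -0.16), with overlapping ranges, and that of the Ndufa genes lay 0.19 above it. Grouping by place in the complex, the N and Q modules had a median of -0.20 over 15 genes and the P modules one of -0.43 over 19. The N module alone had a median of -0.44 over 7 genes and the Q module one of -0.16 over 8, so before any correction the N module lay about as low as the P modules. The 7 core genes had a median of -0.20 and the 27 accessory subunits one of -0.41. With the correction for GC content and length described further on, both orders changed, and the medians were -0.25 for the N module, -0.05 for the Q module and -0.11 for the P modules, and -0.26 for the core against -0.11 for the accessory subunits.

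Transcripts of complex I subunits are short, and the ratio of KO to WT moved with length and GC content over all genes. The median transcript length was 718 bases for the Nduf genes and 2570 bases for all genes with a length, and their median GC content was 52.4% and 50.8%. Over 8276 genes the log2 ratio had a Pearson r of 0.41 (Spearman rho 0.46) with GC content and of 0.12 (rho 0.15) with log length. Over the 38 Nduf genes with a length these were 0.25 (rho 0.26) and 0.22 (rho 0.26). They are correlations across genes of the same 2 libraries, which are not independent replicates.

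The medians of the Nduf genes lay nearer to those of genes of their own length. Of 146 genes of 300 to 600 bases, the median was -0.34 and 29.5% were at least 1.5-fold lower, while the 13 Nduf genes of that length had a median of -0.43 and 3 were at least 1.5-fold lower. Of 573 genes of 600 to 1000 bases, 19.9% were at least 1.5-fold lower with a median of -0.22, beside a median of -0.35 and 4 of 14 Nduf genes. From 1000 to 2000 bases the medians were -0.05 over 2245 genes and -0.17 over 9 Nduf genes, and 11.5% of all genes and 2 of the 9 were at least 1.5-fold lower. The median length was 1334.5 bases in the matrix arm, 693.5 in the membrane arm and 569 among the Ndufa genes.

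**Figure D2:**
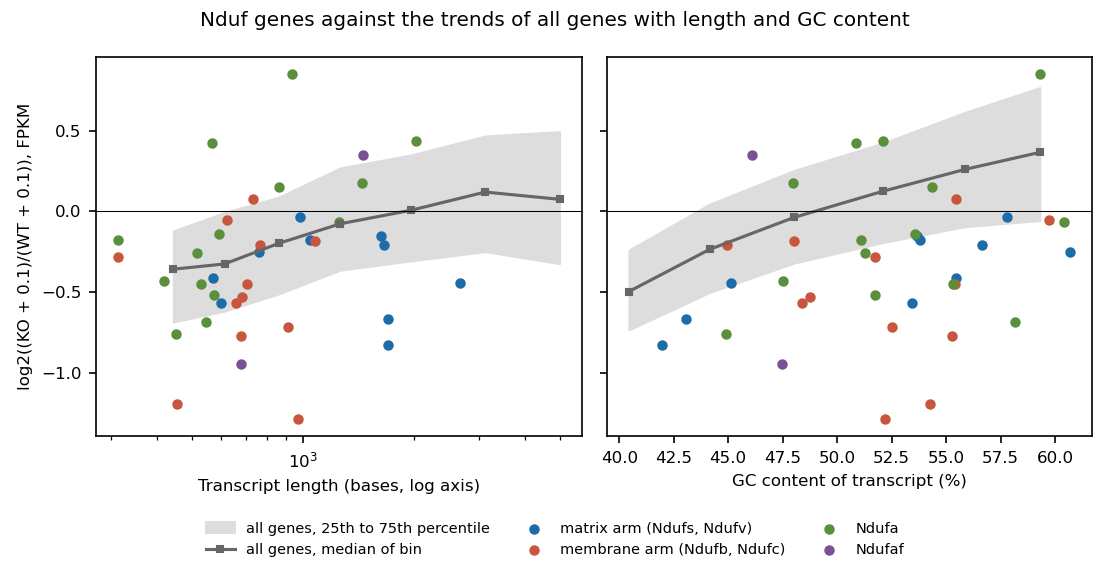
The log2 ratio of KO to WT against transcript length in bases (left, log axis) and GC content in percent (right), with the Nduf genes as coloured points by class, and the median (line) and 25th to 75th percentile (band) of all genes in bins. The line of all genes lies at -0.36 in the shortest bin and at -0.50 in the bin of lowest GC content, and Ndufb4 and Ndufb2 are the points farthest below it.

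After correction for GC content and length by local regression over all genes, the Nduf median was -0.12 against 0.02 for all genes, with 23 of 38 below 0 where 31 had been before. The medians were -0.26 for the matrix arm, -0.12 for the membrane arm and 0.17 for the Ndufa genes. The difference between the arms changed direction, with the membrane arm 0.14 above the matrix arm, and by place in the complex 0.06 above. All 10 genes with an Ndufs or Ndufv name stayed below 0, between -0.36 and -0.04.

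Ndufb4 and Ndufb2 stayed at least 1.5-fold lower after the correction, at -1.11 and -0.85. They were the only 2 of 38, beside 7.06% of all genes. Ndufb8 and Ndufb11 came to -0.58 and -0.52, Ndufa11 to -0.52, Ndufaf2 to -0.47, Ndufv2 to -0.34, Ndufs4 to -0.25 and Ndufa4 to -0.05. Ndufa12, Ndufa4l2 and Ndufaf1 were at least 1.5-fold higher, at 0.82, 0.81 and 0.63, beside 11% of all genes.

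**Figure D3:**
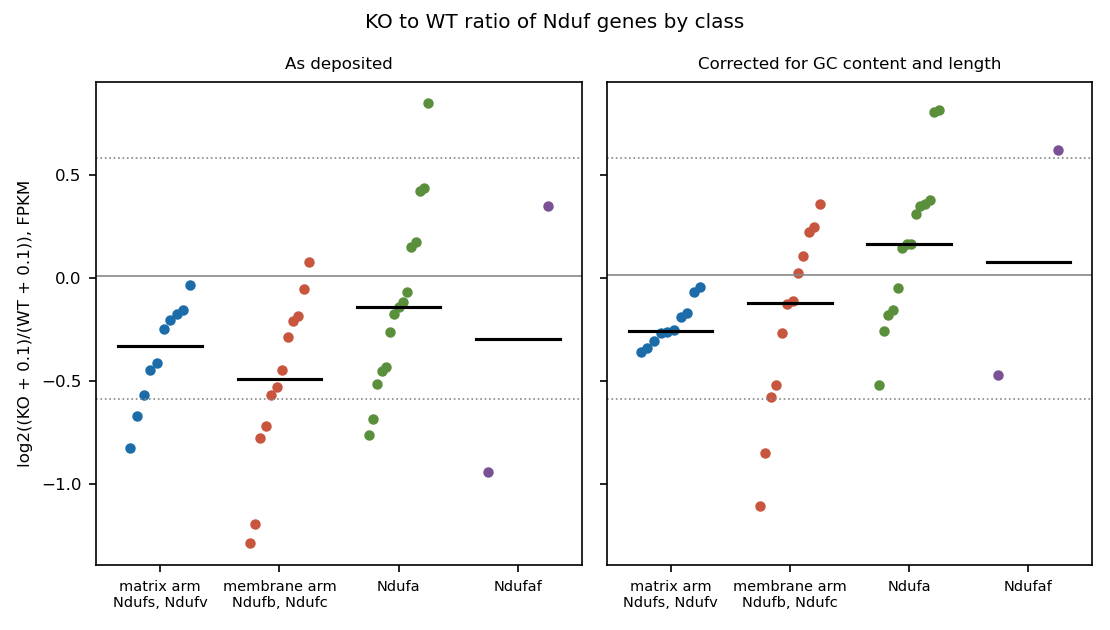
The log2 ratio of KO to WT of each Nduf gene (point) by class, as deposited (left) and corrected for length and GC content (right), with the class median as a black bar, 1.5-fold as dotted lines and the median of all genes as a grey line. As deposited the membrane arm has the lowest median, -0.49, and after correction the matrix arm has, -0.26, so the order of the arms is not the same in the 2 panels.

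The levels kept their spread. Over the 34 subunits of complex I proper, leaving out Ndufa4, Ndufa4l2, Ndufab1 and the assembly factors, levels ran from 81.7 to 2607 FPKM with a median of 586 in WT, and from 50.8 to 1525 FPKM with a median of 479 in KO. Ndufa11 was lowest and Ndufb8 highest in both libraries. The highest stood 31.9-fold above the lowest in WT and 30.01-fold in KO, and the SD of the log2 level across genes was 0.93 and 0.87.

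Motifs of 4 known regulators of mitochondrial genes were searched in the 34 promoter windows. The NRF1 letters occurred in 7 of 34 promoters (20.6%) against 5.19% of 27025 genes, and those of YY1, AANATGGCG, in 7 (20.6%) against 2.76%. The letters of the ETS factors such as GABPA, CCGGAAG, occurred in 5 (14.7%) against 9.93%, and those of ERR in 1 (2.94%) against 1.43%. Members with the NRF1 letters had a median log2 ratio of -0.41 and those without of -0.25, for YY1 -0.41 and -0.20, and for ETS -0.05 and -0.28. In Ndufb4 the NRF1 and ERR letters did not overlap. Apart from Ndufb4, the genes with NRF1 letters were Ndufa5, Ndufa6, Ndufa8, Ndufa11, Ndufs5 and Ndufs6. A match is a description of the sequence only.

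The other complexes of the respiratory chain give the scale of these values. The 4 genes of complex II (succinate dehydrogenase) had a median log2 ratio of -0.19, with 1 at least 1.5-fold lower. The 9 of complex III (cytochrome bc1) had one of -0.58, with 4 lower. The 12 compared nuclear genes of complex IV had one of -1.05, with 8 lower and 1 higher, and their summed level was 30445 FPKM in WT BAT against 15212 FPKM in KO BAT. The 15 of complex V (ATP synthase) had one of -0.39, with 6 lower and 1 higher. The 11 of the citrate cycle in the matrix had one of 0.06, with 1 lower and 1 higher. Over all genes compared, 12.7% were at least 1.5-fold lower and 16.5% at least 1.5-fold higher. Among genes at 100 FPKM or more these shares were 22.5% and 9.78%.

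Corrected for GC content and length, the medians were -0.13 for complex II, -0.32 for complex III, -0.53 for complex IV and -0.17 for complex V, beside -0.12 for the Nduf genes. The complex IV list holds Cox7a1 and Cox8b, which are also among the 11 brown adipocyte markers. Of those 11 markers 7 were at least 1.5-fold lower, against 12.7% of all genes compared, and the median was -0.88. The 2 above 0 were Prdm16 and Plin1, the latter at 338 FPKM in WT BAT and 424 FPKM in KO BAT. Whether the Nduf values follow the share of brown adipocytes in the pools was not tested.

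**Figure D4:**
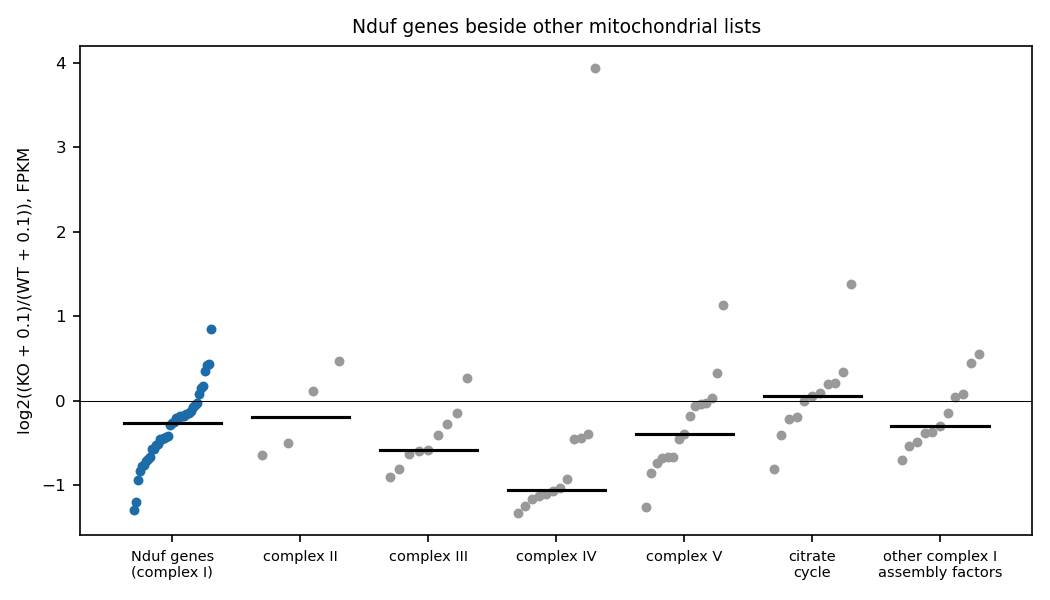
The log2 ratio of KO to WT of each gene (point) in the Nduf genes (blue) and in lists of other mitochondrial genes (grey), with the list median as a black bar. The Nduf median, -0.26, lies between that of the citrate cycle, 0.06, and those of complex III, -0.58, and complex IV, -1.05.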

How the data were processed

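Interscapular BAT of WT and Taf7l KO mice was profiled by mRNA-seq as 1 pooled library of 6 mice per genotype. The authors mapped the reads with TopHat and made the deposited FPKM with Cufflinks, 1 value per UCSC transcript and library, while Bowtie and mm10 are named in the processing notes of the submitters. The positions in the table overlapped the GRCm38 gene for 3 of the 39 Nduf genes, so they are of another build and were not used to place genes. The span of each row, taken from them, was used to match transcripts and to estimate depth. Gene positions and promoters are RefSeq's on GRCm38.p6, and all 39 names matched.

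FPKM were summed per gene name with Python 3.11.15, pandas 2.3.3 and numpy 2.4.6, and genes reaching 1 FPKM in either library were compared on the log2 scale with a pseudocount of 0.1. A member was called at 1.5-fold, and 3-fold is the threshold of the study. Transcript length and GC content came from the protein-coding GENCODE M21 transcript of nearest span within 20%, found for 38 of 39 members (97.4%), Ndufab1 being the exception. The correction used lowess with a fraction of 0.3 (statsmodels 0.14.6), on GC content and then on log10 length. Depth was estimated from 118 low values of 1-exon genes in WT and 83 in KO, of which 88.1% and 77.1% lay within 0.05 of a whole read. Reads were estimated for 9 members whose row spans lay within 30 bp of an annotated transcript, and exact binomial 95% intervals used scipy 1.17.1. Figures used matplotlib 3.10.9. The procedure was tested on simulated data.

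Every Nduf gene is accounted for, with both levels for the core genes, paralog pairs, assembly factors, the 3 highest by level and the 3 at each end of the ratios in a class, and members past 1.5-fold, except that 1 gene of the matrix arm is counted in its class but not reported singly here. The members and lists were chosen with earlier results of these data known. Alternatives covered the pseudocount, filter, scaling, rows, correction, classes and names. ChIP-seq and other assays of the study were not analysed here.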

Additional observations from a re-analysis of the deposited data

How the results depend on the processing

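No paired analysis was possible because each genotype has a single library. With the correction for GC content and length, the median log2 ratio moved to -0.118 for all Nduf genes, -0.118 for the membrane arm, 0.167 for Ndufa and 0.077 for Ndufaf. The differences from the matrix arm moved to 0.138 for the membrane arm, 0.423 for Ndufa and 0.332 for Ndufaf. The members at least 1.5-fold lower were then 2, all in the membrane arm and 0 in the matrix arm, and 3 were at least 1.5-fold higher. With classes by place in the complex, the matrix arm was at -0.205 and Ndufaf lay -0.091 from it. Place and correction together, chosen after seeing the data, gave -0.118 for all, -0.170 for the matrix arm, -0.111 for the membrane arm and 0.077 for Ndufaf, differences of 0.059 and 0.247 for the membrane arm and Ndufaf, 2 lower members, all in the membrane arm and 0 in the matrix arm, and 3 higher. Adding older symbols put Ndufaf -0.093 from the matrix arm. After seeing the data, leaving out the 6 members with over 10% of windows elsewhere put Ndufa 0.073 from the matrix arm, and counting Ndufa12l with Ndufa gave 0.350 for Ndufaf, 0.681 from the matrix arm. The causes were not tested. Under the correction 8 of 38 members changed sign, all from below to above 0, and 7 lower calls were lost. Under the other pseudocounts, filters, scalings and row choices, class medians stayed within 0.1 and counts within 1.5 times.

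A single pool per genotype leaves the spread between animals unknown, and depth limits only the lowest genes, such as Ndufa4l2.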

Other observations

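The subunits of complex I that the mitochondrial genome encodes are seen in the table only in part. The row of mt-Nd4, which spans Nd4l and Nd4, stood at 13923 FPKM in WT BAT and 21752 FPKM in KO BAT, a log2 ratio of 0.64, on the other side of 0 from most nuclear subunits. Corrected for GC content and length it was 1.59. The other mitochondrial rows described by an NADH subunit, AK163440 and AK018753, were at 0.48 and 0.03.

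Of 7 regulators of mitochondrial genes, 1 (14.3%) was at least 1.5-fold higher and none at least 1.5-fold lower. Over all genes compared these shares were 16.5% and 12.7%. The 1 was Ppargc1b, a coactivator of the PGC-1 family, at 4.30 FPKM in WT and 21.1 in KO. Ppargc1a, its relative that drives the response of brown fat to cold, stood at 5.98 FPKM in WT BAT against 4.13 FPKM in KO BAT. Esrra, which encodes ERRα, stood at 73.6 FPKM in WT BAT and 70.1 FPKM in KO BAT, and Nrf1 at 2.89 FPKM in WT and 3.53 in KO.

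Markers of other cells were mixed. The summed levels in WT and KO were 93.3 and 105 FPKM for 5 endothelial genes, 86.9 and 97.2 FPKM for 6 macrophage genes and 161 and 146 FPKM for 5 fibroblast genes. The fibroblast sum joins opposite differences, with Dcn and Lum at least 1.5-fold lower and Col1a1 and Col1a2 at least 1.5-fold higher, Col1a1 at 5.92 FPKM in WT BAT against 23.0 FPKM in KO BAT. Of the macrophage genes 3 were at least 1.5-fold higher and 3 lay below 0, and of the endothelial genes none passed that fold. Over all genes compared, 16.5% were at least 1.5-fold higher and 12.7% at least 1.5-fold lower. Of the 5 T and B cell genes, 3 were compared, and the summed level of the list was 3.89 FPKM in WT BAT against 3.53 FPKM in KO BAT.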
